A study of Mus musculus with 24 samples.

Results

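MHC class I genes encode the cell-surface molecules that show peptides from inside the cell to T cells and natural killer cells. The 9 genes followed here are the light chain B2m, the classical heavy chains H2-K1 and H2-D1, and 6 nonclassical heavy chain genes, H2-Q4, H2-Q6 and H2-Q7 of the Q region and H2-T10, H2-T22 and H2-T23 of the T region. They were chosen by family membership, and selected on RNA levels of these same libraries being already known; which contrast weighed in that choice is not recorded. Their own levels and calls are therefore given as a description, with no test. They are 9 of the 53379 genes in the tables, and all 9 are among the 19470 that passed the filter on low counts.

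RNA was sequenced from 10 mouse samples in 5 groups of 2 libraries. All came from the embryonic stem cell line E14Tg2a.IV. One group held wild-type (WT) stem cells in the pluripotent state at day 0. The other 4 groups held embryoid bodies, the aggregates in which stem cells differentiate after the self-renewal factor LIF is withdrawn, at day 4: from WT cells, from the Smad2 knockout, from the Smad3 knockout and from the Smad2/3 double knockout. Both proteins are transcription factors that respond to ligands of the TGF-beta family, such as Nodal and Activin. The labels name no separate cultures, and the file names give 1 line number for each knockout, so the spread between libraries may be technical and a knockout cannot be told apart from its line. Depth was 35733249 to 53672980 expected counts per library. Smad2 RNA was 19.2 and 20.4 CPM in the Smad2 knockout and 22.2 and 22.7 in the double knockout, against 49.9 and 38.3 in WT at day 4. Smad3 RNA was 49.7 and 48.7 CPM in the libraries labelled Smad3 knockout and 42 and 44.9 in WT, so it does not check that label. It was 28 and 25.7 CPM in the double knockout and 30.8 and 31 in the Smad2 knockout, both below WT. In the second of 2 series of file names stood replicate 2 of every group but the double knockout. CPM is the count of a gene scaled to the TMM-adjusted library total and compares 1 gene between samples. TPM corrects for transcript length and is used to compare genes with each other. A gene is said to be called where its Benjamini-Hochberg adjusted p over all tested genes was under 0.05 in edgeR's quasi-likelihood test.

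A class I heavy chain folds around a peptide and pairs with B2m in the endoplasmic reticulum before it travels to the surface. The immunoproteasome cuts proteins into suitable peptides, the TAP transporter brings them into the reticulum, tapasin helps to load them and ERAP1 trims them. Transcription of the heavy chain genes and of B2m is driven from short upstream sequences: an enhancer bound by NF-kappa-B, a neighbouring site for interferon regulatory factors such as IRF1, and an X and Y box module through which NLRC5 acts. Pluripotent stem cells are known for low class I surface levels, and interferon gamma is the classical inducer.

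The promoters of 4 heavy chain genes and of B2m are shown, among them genes that differed in how they stood across the groups. H2-Q6 and H2-T22 ran close together, with a Pearson's r of log2 CPM of 0.89 over 10 libraries. A link between promoter sequence and level was not tested. Each line gives the 200 bases before the RefSeq start (GRCm38.p6), 5′ to 3′ on the strand of the gene. Capitals mark 4 short motifs searched on both strands: GGGATTCCC (core of the enhancer A), AANNGAAA (core of the interferon regulatory factor site), TGACG (resembling the X2 box) and CCAAT (Y box). The letters of the second motif were settled after the promoters had been read. Where motifs overlap, the capitals run together.
B2m: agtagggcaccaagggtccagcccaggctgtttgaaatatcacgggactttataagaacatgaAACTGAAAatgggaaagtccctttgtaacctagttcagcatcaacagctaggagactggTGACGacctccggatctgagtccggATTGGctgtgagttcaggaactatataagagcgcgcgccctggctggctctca
H2-K1: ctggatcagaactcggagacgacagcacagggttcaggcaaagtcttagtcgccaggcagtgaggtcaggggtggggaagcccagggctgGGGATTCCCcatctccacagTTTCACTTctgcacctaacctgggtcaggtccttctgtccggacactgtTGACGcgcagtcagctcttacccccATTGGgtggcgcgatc
H2-D1: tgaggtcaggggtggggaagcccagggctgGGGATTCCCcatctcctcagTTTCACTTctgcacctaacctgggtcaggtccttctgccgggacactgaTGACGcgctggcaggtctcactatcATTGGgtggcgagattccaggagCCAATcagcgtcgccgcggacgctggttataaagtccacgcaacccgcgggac
H2-Q6: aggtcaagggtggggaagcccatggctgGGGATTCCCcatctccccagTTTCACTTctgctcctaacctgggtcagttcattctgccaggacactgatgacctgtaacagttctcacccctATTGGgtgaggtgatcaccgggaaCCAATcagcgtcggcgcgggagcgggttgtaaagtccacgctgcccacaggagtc
H2-T22: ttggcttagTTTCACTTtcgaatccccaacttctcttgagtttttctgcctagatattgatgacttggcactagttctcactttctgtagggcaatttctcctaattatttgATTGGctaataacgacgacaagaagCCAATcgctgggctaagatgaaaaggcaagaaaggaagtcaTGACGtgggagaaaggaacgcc

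H2-K1 lies on chromosome 17 on the minus strand (chr17:34000348-34000547 for the bases shown) and H2-D1 on the plus strand (chr17:35262894-35263093). The window of H2-Q6 is chr17:35424650-35424849 on the plus strand and that of H2-T22 chr17:36042743-36042942 on the minus strand. B2m lies on chromosome 2 (chr2:122147487-122147686, plus strand). RefSeq entries were found for 8 of the 9 genes, with 2 for H2-K1; H2-T10 had none. In the 250 bases before the start, GGGATTCCC stood in H2-K1, H2-D1, H2-Q6 and H2-Q7, and in 0.301% of all 32851 promoters of that length. AANNGAAA stood in all 8 genes with an entry, and in 21.3% of all promoters. TGACG was found in 6 of the 8, not in H2-Q6 and H2-T23, and in 17.8% of all promoters. CCAAT was found in all 8, and in 33.8% of all promoters. A match to TGACG does not by itself place an X2 box, nor does its absence exclude one. In H2-T22 it stood 22 bases before the start, nearer than the CCAAT matches at 201, 88 and 63. In H2-Q4 it stood at 73, between those at 79 and 55. H2-D1 and H2-Q6 were 82.2% identical over the aligned window, and H2-D1 and H2-T22 44.9%. Both H2-D1 and H2-Q6 thus hold the enhancer A core 170 and 172 bases before their starts.

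The clearest pattern lay in the double knockout. There H2-Q4, H2-Q6, H2-Q7, H2-T10 and H2-T22 were called lower than in WT at day 4, and 0 of the 9 higher. Of all tested genes 12.3% were called lower and 10.8% higher. H2-K1, at 34.5 and 31.3 CPM against 34.8 and 62.2 in WT, was not called, nor were H2-T23, B2m and H2-D1. The 6 Q and T region genes were called higher at day 4 than at day 0 in WT cells, beside 28.9% of all tested genes. Levels per library are shown in the plot of CPM by group.

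**Figure D1:**
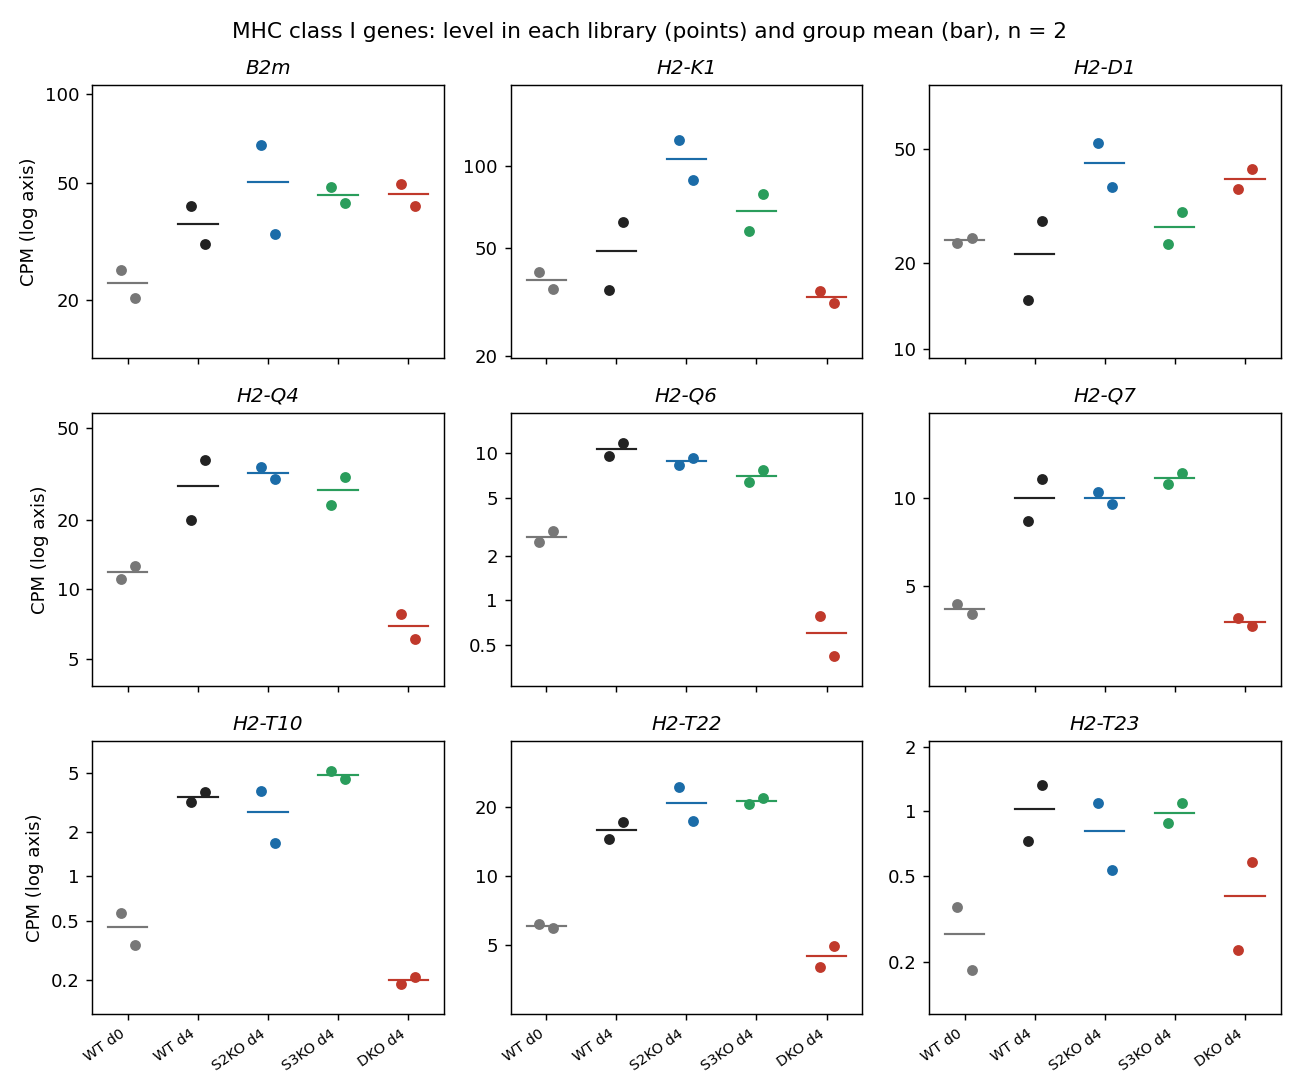
RNA level of the 9 class I genes in each of the 10 libraries. Vertical axes are CPM on a log scale and differ between panels, points are libraries and bars are means of n = 2. H2-Q6 was 0.789 and 0.418 CPM in the double knockout (DKO) against 9.56 and 11.8 in WT at day 4, whereas B2m was 49.5 and 41.8 against 41.6 and 31.

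B2m (ENSMUSG00000060802.8, chromosome 2, 122147686 to 122153083, mm10) encodes the light chain shared by all class I molecules. Its level was 25.3 and 20.3 CPM in WT at day 0 and 41.6 and 31 at day 4. In the knockouts it was 67 and 33.4 CPM without Smad2, 48.2 and 42.7 without Smad3, and 49.5 and 41.8 in the double knockout. The day 4 libraries thus all stood above those of day 0, and those of the double knockout overlapped both single knockouts. The log2 difference from WT day 4 was 0.47 (SE 0.31), 0.32 (SE 0.31) and 0.33 (SE 0.31) in the Smad2, Smad3 and double knockouts, and none was called. Day 4 against day 0 was 0.67 (SE 0.31) and not called. It was called higher in 7 of 16 alternatives, among them no filter (0.70), the replicate block (0.66) and log2(TPM + 1) (1.48, where the median of all genes was 0.63).

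H2-K1 (ENSMUSG00000061232.15, chromosome 17, 33996017 to 34000347), a classical heavy chain, was 40.6 and 35.2 CPM at day 0 and 34.8 and 62.2 in WT at day 4. It was 124 and 88.7 CPM in the Smad2 knockout, 57.6 and 79 in the Smad3 knockout and 34.5 and 31.3 in the double knockout. The Smad2 knockout held the highest values of all groups, and the double knockout stood below every other day 4 library. The log2 difference from WT was 1.13 (SE 0.29) in the Smad2 knockout, called higher, and -0.56 (SE 0.29) in the double knockout, not called. Against the Smad2 knockout the double knockout was at -1.69 (SE 0.30) and against the Smad3 knockout at -1.05 (SE 0.29), both called lower. On log2(TPM + 1) these were -0.75 and -0.92 and not called.

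H2-D1 (ENSMUSG00000073411.11, chromosome 17, 35262730 to 35267499), the other classical heavy chain of this list, took another order. It was 23.5 and 24.5 CPM at day 0, and 14.8 and 28.1 in WT at day 4. The Smad2 knockout had 52.6 and 36.9 CPM, the Smad3 knockout 23.2 and 30.2, and the double knockout 36.2 and 42.5. Both the Smad2 and the double knockout stood above both WT libraries. The log2 difference from WT was 1.06 (SE 0.31) in the Smad2 knockout, called higher, and 0.88 (SE 0.30) in the double knockout, not called. The latter was called higher in 7 of 16 alternatives.

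The calls of both classical genes in the Smad2 knockout rest on few libraries and on the scale. Within the first series of file names the log2 difference of the Smad2 knockout from WT was 1.83 for H2-K1 and 1.83 for H2-D1, and within the second it was 0.51 and 0.39. Without Smad2 knockout replicate 1 the values were 0.87 and 0.78 and neither was called, and without WT day 4 replicate 1 H2-D1 was 0.73 and not called. With the compared groups alone neither was called. On log2(TPM + 1) they were 0.45 and 0.33 and not called, while the median of all genes on that scale was -0.51. With the length and GC offset they were 0.64 and 0.85 and both stayed called higher. Gene length moved with these differences: over 11217 genes Spearman's rho between log2 fold change and gene length was -0.68 for the Smad2 knockout against WT and 0.63 for day 4 against day 0, but -0.04 and 0.07 for the Smad3 and the double knockout. These are across genes, which are not independent replicates. Ribosomal protein genes took 12.5 to 16.85% of counts at day 0 and 13.69 to 14.42% in the Smad2 knockout, against 5.98 to 8.37% in the other libraries. Their part in the result was not tested.

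H2-Q4 (ENSMUSG00000035929.11, 35379617 to 35385290) was 11.1 and 12.6 CPM at day 0 and 19.9 and 36.3 in WT at day 4. It was 33.8 and 30 CPM in the Smad2 knockout, 23.2 and 30.5 in the Smad3 knockout and 7.79 and 6.1 in the double knockout. Both double knockout libraries lay below all 8 others. Against WT at day 4 the double knockout was at -2.02 (SE 0.30) on the log2 scale, 4.04-fold lower.

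H2-Q6 (ENSMUSG00000073409.12, 35424850 to 35430055) is a Q region gene with low counts in 1 group. At day 0 it was 2.48 and 2.95 CPM, and in WT at day 4 it was 9.56 and 11.8. The single knockouts had 8.39 and 9.32 without Smad2 and 6.35 and 7.65 without Smad3. The double knockout had 0.789 and 0.418 CPM, from 38.3 and 18.2 expected counts. These lay below the other 8 libraries by a wide gap, with a log2 difference from WT of -4.13 (SE 0.34), 17.5-fold lower.

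H2-Q7 (ENSMUSG00000060550.15, 35439155 to 35443773) was 4.36 and 4.03 CPM at day 0, 8.37 and 11.6 in WT at day 4, 10.5 and 9.54 in the Smad2 knockout and 11.2 and 12.2 in the Smad3 knockout. It was 3.9 and 3.66 in the double knockout, just below day 0. It was 2.64-fold below WT at day 4 (log2 difference -1.40, SE 0.23), and on log2(TPM + 1) the difference was -0.94 and not called. H2-Q6 and H2-Q7 both encode heavy chains of the Qa-2 antigen.

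H2-T10 (ENSMUSG00000079491.9, chromosome 17, 36115876 to 36121465, annotated as a polymorphic pseudogene) was 0.568 and 0.342 CPM at day 0 and 3.2 and 3.71 in WT at day 4. It was 3.79 and 1.69 in the Smad2 knockout, 5.2 and 4.57 in the Smad3 knockout and 0.187 and 0.209 in the double knockout, the last from 9.5 and 8.5 expected counts. Both double knockout libraries were the lowest of all. They were 17.2-fold lower than WT at day 4, a log2 difference of -4.11 (SE 0.48).

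H2-T22 (ENSMUSG00000056116.18, 36037128 to 36042747), which with H2-T10 encodes a known ligand family of gamma-delta T cells, was 6.15 and 5.92 CPM at day 0 and 14.5 and 17.3 in WT at day 4. It was 24.4 and 17.4 in the Smad2 knockout, 20.6 and 21.9 in the Smad3 knockout and 3.99 and 4.94 in the double knockout. The double knockout lay below day 0 as well, and 3.56-fold below WT at day 4 (log2 difference -1.83, SE 0.23).

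H2-T23 (ENSMUSG00000067212.8, 36029773 to 36032855) encodes Qa-1, whose bound leader peptides are read by natural killer cell receptors. Its level was 0.359 and 0.184 CPM at day 0, 0.732 and 1.33 in WT at day 4, 1.09 and 0.533 without Smad2, 0.888 and 1.09 without Smad3, and 0.228 and 0.58 in the double knockout. These rest on 7.1 to 55.9 expected counts per library. The double knockout lay below WT at day 4 and overlapped the Smad2 knockout and day 0. Its log2 difference from WT, -1.35 (SE 0.59), was not called.

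**Figure D2:**
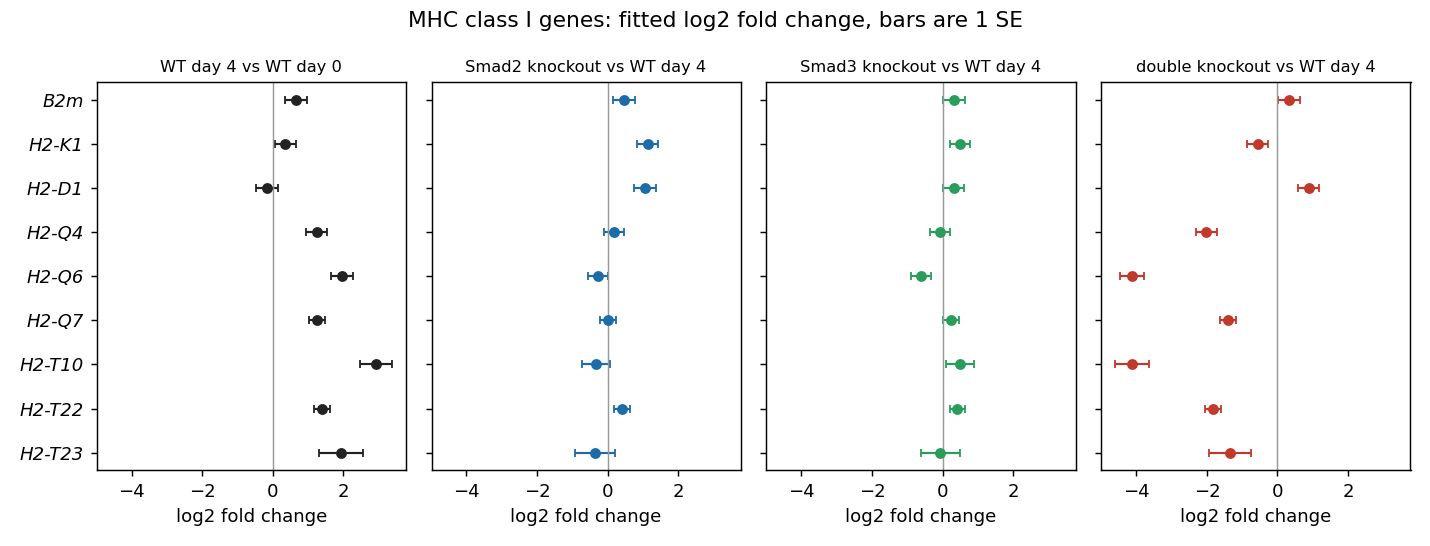
Log2 fold changes of the 9 genes in the 4 comparisons with WT, with bars of 1 SE from the fit. In the double knockout H2-Q6 and H2-T10 sat at -4.13 and -4.11 and H2-D1 at 0.88, while in the Smad3 knockout the values ran from -0.61 to 0.50.

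Counted over the family, 6 of the 9 were called higher and 0 lower at day 4 against day 0, where 28.9% of all tested genes were called higher and 23.2% lower. Those 6 were the Q and T region genes, with H2-T10 at 2.92 (SE 0.45), H2-Q6 at 1.97 (SE 0.31), H2-T23 at 1.93 (SE 0.62) and H2-T22 at 1.39 (SE 0.23). H2-Q7 stood at 1.25 (SE 0.23) and H2-Q4 at 1.24 (SE 0.29). H2-K1 was at 0.36 (SE 0.29) and H2-D1 at -0.16 (SE 0.30), neither called. On log2(TPM + 1), where the median of all genes was 0.63, they were 1.11 and 0.90 and called higher. The sign of H2-D1 therefore turned with the scale. H2-K1 was also called higher with the length and GC offset (0.88) and without WT day 4 replicate 1 (0.67). Without WT day 4 replicate 2 H2-D1 was -0.69 and called lower, and H2-K1 was -0.12 and not called. H2-T23 was not called without either day 0 library (2.47 without replicate 1 and 1.52 without replicate 2) or without WT day 4 replicate 2 (1.44), nor H2-Q4 without WT day 0 replicate 1 (1.16). The median of the 9 was 1.25, and that of all tested genes 0.10.

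In the Smad2 knockout 2 of 9 were called higher (H2-K1 and H2-D1) and 0 lower, against 15.4% and 20.1% of all tested genes. The median was 0.18, and -0.01 over all genes. H2-Q6, at -0.27 (SE 0.29) on counts, was called lower on log2(TPM + 1) at -0.83, where the all-gene median was -0.51, and with the length and GC offset at -0.77, where that median was 0.05. In the Smad3 knockout 0 of 9 were called either way by edgeR, and 0 by DESeq2 or limma, against 0.431% higher and 0.123% lower of all genes, with a median of 0.32 and -0.04. Without WT day 4 replicate 2, H2-K1 was called higher there at 0.97.

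In the double knockout 5 of 9 were called lower and 0 higher, against 12.3% lower and 10.8% higher of all genes. The 5 were H2-Q4, H2-Q6, H2-Q7, H2-T10 and H2-T22, and the median of the 9 was -1.40, against -0.05. H2-Q4, H2-Q6, H2-T10 and H2-T22 were called lower in 16 of 16 alternatives, and H2-Q7 in 14 of 16. For H2-Q6, H2-Q7, H2-T10 and H2-T22 the alternative of summed near copies stands for the pair, not the gene alone. Both double knockout libraries belong to the first series of file names; against the WT library of that series H2-Q6 was at -3.94 and H2-T22 at -1.70. With the file series as a block H2-D1 was 1.01 and called higher, and H2-K1 against the Smad3 knockout was -0.97 and not called. Without WT day 4 replicate 1 H2-K1 was -0.86 and called lower, and without WT day 4 replicate 2 H2-D1 was 1.41 and called higher.

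Direct contrasts of the knockouts share these libraries, so they are not further evidence. Between the Smad2 and Smad3 knockouts 0 of 9 were called either way (15.7% of all genes higher, 17.9% lower). The double knockout had 6 of 9 lower and 0 higher against the Smad2 knockout (19.1% lower and 20.5% higher of all genes). Against the Smad3 knockout it again had 6 lower and 0 higher (8.01% lower and 7.53% higher). In both, H2-K1 joined the 5 genes above, but its call against the Smad3 knockout was lost when any 1 of the 4 libraries compared was left out (-0.81 to -1.27). H2-Q6 stood at -3.86 (SE 0.34) against the Smad2 knockout and -3.52 (SE 0.34) against the Smad3 knockout.

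Ordered by TPM, B2m had the highest mean of the 9 in all 5 groups, although it overlapped H2-K1 in the Smad2 knockout. In WT at day 4 it was 76.8 ± 17 (SD, n = 2), followed by H2-K1 at 48.6 ± 18, H2-Q4 at 21.7 ± 8.9 and H2-D1 at 20.3 ± 5.7, the last pair overlapping. H2-T22 was at 14.2 ± 1.2, H2-Q6 at 7.95 ± 0.82 and H2-Q7 at 6.02 ± 3.1, this pair overlapping too. H2-T10 was at 2.58 ± 0.064 and H2-T23 at 0.99 ± 0.44. In the double knockout B2m was at 108 ± 12, H2-D1 at 39.6 ± 3.7 and H2-K1 at 37.9 ± 2.4, the last pair overlapping. H2-Q4 was at 6.08 ± 0.95, H2-T22 at 4.56 ± 0.82, H2-Q7 at 2.47 ± 0.31, H2-Q6 at 0.515 ± 0.22, H2-T23 at 0.40 ± 0.28 and H2-T10 at 0.10 ± 0. Only H2-Q6 and H2-T23 overlapped among those 6. H2-Q6 thus stood 6th among the 9 in WT at day 4 and 7th in the double knockout.

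Near copies limit how far single heavy chain genes can be read. Of the 50-base stretches in the transcripts of a gene, 31.7% of H2-T10 also occurred in H2-T22, 13.9% of H2-Q6 in H2-Q7 and 14.0% of H2-Q7 in H2-Q10. For B2m 0% were shared, and its expected counts were exactly whole in all 10 libraries, while those of the 8 heavy chain genes, as deposited and with no tolerance, were not exactly whole in any. The split between copies is an estimate, so H2-Q6 with H2-Q7 and H2-T10 with H2-T22 were also summed. Other near copies were not summed, such as H2-Q7 with H2-Q10, or H2-Q6 with H2-Q4, which held 12.3% of the stretches of H2-Q6. H2-Q6 and H2-Q7 together were at -2.23 (SE 0.21) in the double knockout against WT, and H2-T10 and H2-T22 together at -2.05 (SE 0.24), both called lower. The same sums at day 4 against day 0 were 1.58 (SE 0.21) and 1.57 (SE 0.23), both called higher.

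Of 13 genes that supply and load peptides for class I molecules, 9 were called lower and 0 higher in the double knockout, with a median of -1.59. Over all tested genes 12.3% were lower and 10.8% higher. The list was chosen with earlier results of these data known. Psmb8, a catalytic subunit of the immunoproteasome, was 0.303 ± 0.1 CPM against 12.6 ± 4.1 in WT (log2 difference -5.35, SE 0.42, adjusted p = 6.19e-05). Erap1, the trimming peptidase, was 3.63 ± 0.38 against 42.7 ± 12 (-3.56, SE 0.33, adjusted p = 0.000135). Psmb9, another catalytic subunit, had -1.28 (SE 0.40, adjusted p = 0.0476), a call kept in 8 of 16 alternatives. The 6 others, chosen for naming after their values were seen, were Psmb10 (-3.14), Tapbpl (-2.87), Tap2 (-2.86), Psme2 (-2.0), Psme1 (-1.59) and Tapbp (-1.22), the last called in 10 of 16 alternatives and the other 5 in 16 of 16. Not called were Tap1 (0.49, SE 0.27, adjusted p = 0.221) and the general chaperones Pdia3, Calr and Canx.

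**Figure D3:**
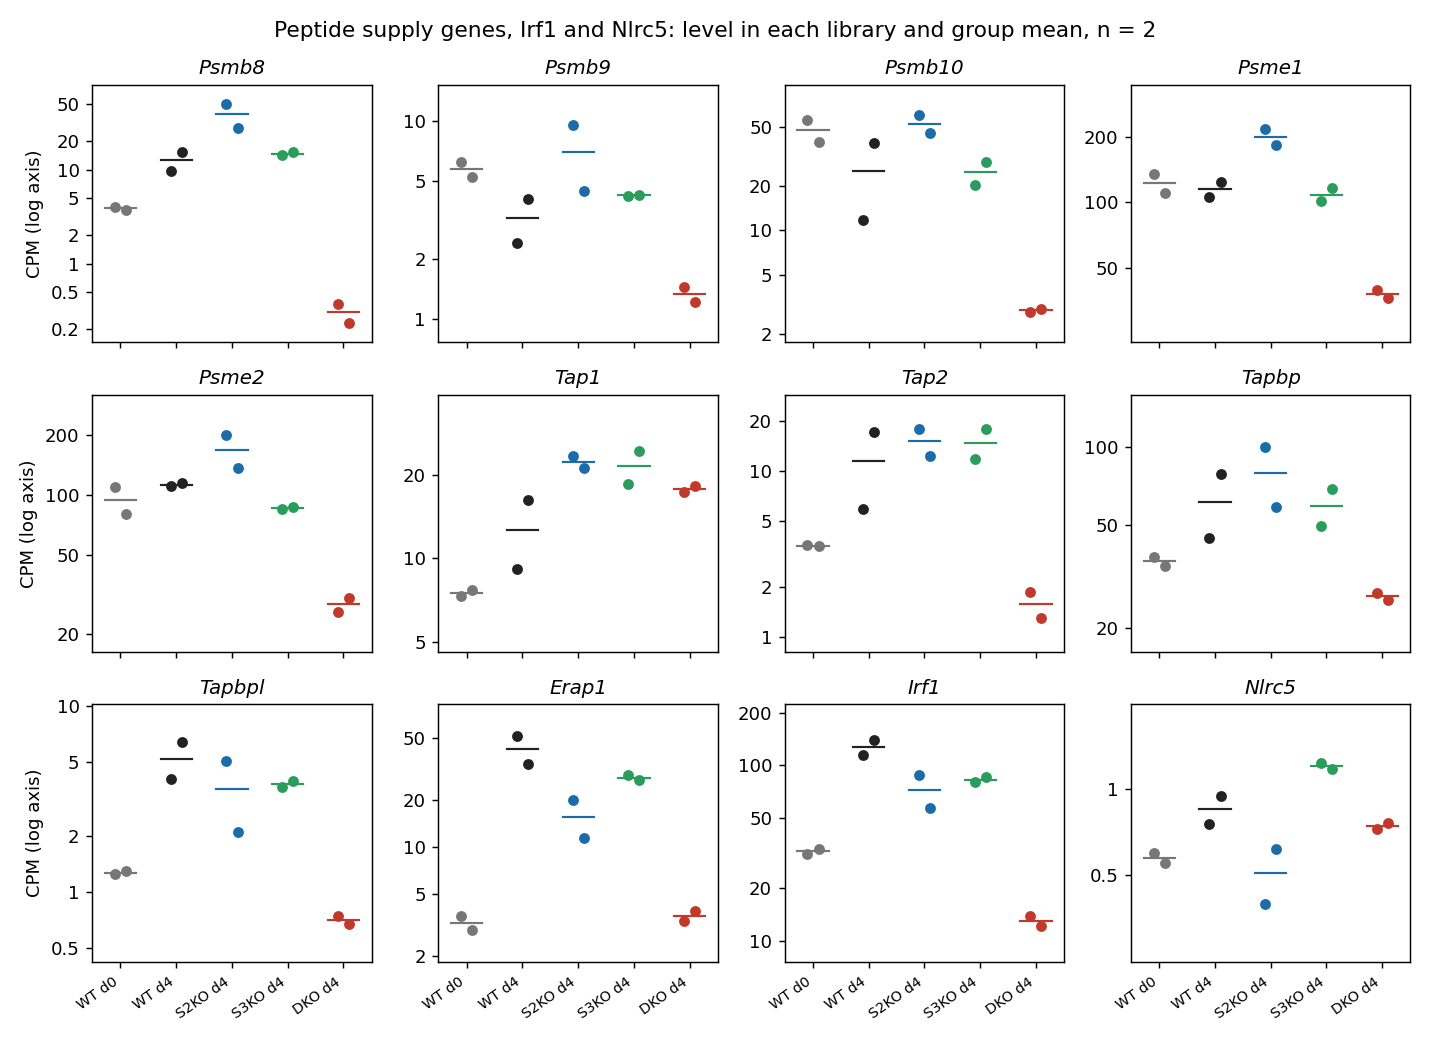
CPM (log axes, differing between panels) of 10 peptide supply genes, Irf1 and Nlrc5 in each library, with bars at the group means of n = 2. Psmb8 was 0.374 and 0.232 in the double knockout (DKO) and 9.67 and 15.5 in WT at day 4; Tap1 was 17.4 and 18.3 against 9.15 and 16.2.

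At day 4 against day 0 the same list had 7 genes called higher and 0 lower, with a median of 0.69. Without WT day 0 replicate 1 fewer were called higher, both of the list and of all tested genes. On log2(TPM + 1) 11 of the list were higher, where 7109 of all 14328 genes were higher and their median was 0.63. Erap1 went from 3.27 ± 0.49 to 42.7 ± 12 CPM (3.71, SE 0.33, adjusted p = 6.37e-05) and Psmb8 from 3.86 ± 0.17 to 12.6 ± 4.1 (1.71, SE 0.33, adjusted p = 0.00266). Tap1 was higher (0.76, SE 0.27, adjusted p = 0.0417; called in 12 of 16 alternatives), and Psmb9 was not called (-0.82, SE 0.39, adjusted p = 0.105). Over all tested genes 28.9% were higher and 23.2% lower at day 4 against day 0. In the Smad2 knockout 3 of the list were called higher and 1 lower, beside 15.4% and 20.1% of all tested genes. Psmb8 was 38.7 ± 15 CPM there (1.62, SE 0.33, adjusted p = 0.00607), Psme1 had 0.80 (SE 0.18, adjusted p = 0.00921), Tap1 had 0.82 (SE 0.27, adjusted p = 0.0412), and Erap1 was lower at 15.7 ± 6.1 (-1.44, SE 0.30, adjusted p = 0.00664). The call of Erap1 was lost with the length and GC offset, and Tap1 was called in 9 of 16 alternatives and Psme1 in 12 of 16. Psmb9 was not called there (1.11, SE 0.39, adjusted p = 0.0525). On log2(TPM + 1) 0 of the list were higher in the Smad2 knockout and 3 were lower, with Psme1 at -0.11. Over all 14328 genes on that scale 792 were higher and 6157 lower, with a median of -0.51. In the Smad3 knockout 0 were called, with Tap1 at 0.76 (SE 0.27, adjusted p = 0.201), Psmb9 at 0.38 (SE 0.39, adjusted p = 0.664) and Psmb8 at 0.23 (SE 0.32, adjusted p = 0.765); without WT day 4 replicate 2, 3 were higher and 1 lower.

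Of 18 genes for factors that act on class I promoters, 1 was called lower and 3 higher in the double knockout. Over all tested genes these shares were 12.3% and 10.8%. The lower one was Irf1, the interferon regulatory factor, with 14 and 12.2 CPM against 115 and 139 in WT, 31.3 and 33.7 at day 0, 87.9 and 57.2 in the Smad2 knockout and 80.8 and 85.5 in the Smad3 knockout. Its log2 difference from WT was -3.28 (SE 0.24, adjusted p = 4.02e-05), and it was called in 16 of 16 alternatives. At day 4 against day 0 it was called higher (1.96, SE 0.22, adjusted p = 0.000187), in the Smad2 knockout lower (-0.81, SE 0.22, adjusted p = 0.019), and in the Smad3 knockout it was not called (-0.61, SE 0.22, adjusted p = 0.203). The Smad2 knockout call was kept in 14 of 16 alternatives, not with the compared groups alone or without Smad2 knockout replicate 2. Of the 18, 5 were higher and 3 lower at day 4 against day 0, beside 28.9% and 23.2% of all tested genes. In the Smad2 knockout 2 were higher and 6 lower, beside 15.4% and 20.1%. The 6 lower ran from 1 with the compared groups alone to 11 on log2(TPM + 1). Over all genes 1511 of 17643 and 6157 of 14328 were lower in those 2 fits. Creb1, whose protein binds the X2 box, was higher at day 4 (1.97, SE 0.23, adjusted p = 0.00021) and lower in the Smad2 knockout (-1.23, SE 0.22, adjusted p = 0.00415), the latter not with the length and GC offset. Rfxank, of the X box complex, was lower at day 4 (-1.25, SE 0.27, adjusted p = 0.0042) and higher in the Smad2 knockout (1.01, SE 0.27, adjusted p = 0.0176). Those 2 calls were kept in 14 and 12 of 16 alternatives, neither of them on log2(TPM + 1). Irf2 (1.85, SE 0.36, adjusted p = 0.00634) and Irf9 (0.83, SE 0.20, adjusted p = 0.0144) were higher in the double knockout, as was Irf8. The 3 higher ran from 1 with the compared groups alone to 6 with the length and GC offset, where 1482 of 18089 and 3315 of 19470 genes were higher. Irf9 was not called without either double knockout library. Nlrc5, the coactivator of class I genes, was 0.727 and 0.765 CPM in the double knockout and 0.755 and 0.951 in WT (-0.19, SE 0.37, adjusted p = 0.748).

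Of 12 interferon and TNF receptors and kinases, 4 were called higher and 0 lower in the double knockout. Over all tested genes 10.8% were higher and 12.3% lower. Ifnar2 was 25.4 ± 2.8 CPM against 8.75 ± 0.87 (1.54, SE 0.20, adjusted p = 0.000748) and Ifnlr1 13.8 ± 0.43 against 6.87 ± 0.11 (1.00, SE 0.21, adjusted p = 0.00924). Ifnlr1 was called in 14 of 16 alternatives, but not when either double knockout library was left out. Beside the same shares of 12.3% lower and 10.8% higher, 6 of 20 interferon-stimulated genes were lower and 3 higher, with a median of -0.61. Gbp3 (-2.71, SE 0.30, adjusted p = 0.000377) and Parp14 (-1.67, SE 0.22, adjusted p = 0.000795) were lower, while Rsad2 (3.28, SE 0.68, adjusted p = 0.00817) and Oas1a (1.32, SE 0.33, adjusted p = 0.0197) were higher. Without double knockout replicate 2, 0 of the 20 were higher, and neither Rsad2 nor Oas1a was called. The others called were Gbp2, Ifih1, Ifit1 and Ifit2, lower, and Irf7, higher. In the Smad2 knockout 5 of the 20 were higher (1 to 9 over the alternatives) and 2 lower, beside 15.4% and 20.1% of all tested genes. At day 4 against day 0 10 were higher and 3 lower, beside 28.9% and 23.2%.

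Of 24 other H2 class I genes 11 were tested. In the double knockout 3 were called lower and 2 higher, beside 12.3% and 10.8% of all tested genes. H2-Q10, which encodes a secreted class I molecule, was at -2.15 (SE 0.32, adjusted p = 0.00162) and H2-Q2 at -1.47 (SE 0.24, adjusted p = 0.0024). H2-M5 was higher at 2.04 (SE 0.28, adjusted p = 0.000958). Named after their values were seen, H2-M3, whose product binds formylated peptides, was at -2.42 (SE 0.38, adjusted p = 0.00206) and the pseudogene H2-M6-ps at 2.62 (SE 0.63, adjusted p = 0.0158). Of 9 tested class II genes, whose products present peptides taken up from outside the cell, 2 were higher and 0 lower: H2-Eb1 (3.44, SE 0.33, adjusted p = 0.00016) and H2-DMb1 (1.33, SE 0.35, adjusted p = 0.0225). Of 9 tested class I-like genes outside the H2 complex 2 were higher and 0 lower.

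The Q and T regions were next set beside their neighbours on chromosome 17. Of the 113 other tested genes from H2-K1 to H2-T23, which include Psmb8, Psmb9, Tap1, Tap2 and class II genes, 8 were called higher and 11 lower in the double knockout, with a median of -0.03, beside 10.8% and 12.3% of all genes. Of the 32 tested genes between H2-D1 and H2-T10 that are not class I genes, a list added after the data were seen, 2 were higher and 5 lower, with a median of -0.20. Psors1c2 was lower there (-2.83, SE 0.31, adjusted p = 0.000337). Pou5f1, the pluripotency factor, named after its value was seen, was lower too (-2.09, SE 0.31, adjusted p = 0.00145). In the Smad2 knockout, where H2-K1 and H2-D1 were called higher, 26 of the 113 were higher and 3 lower, with a median of 0.53, beside 15.4% higher and 20.1% lower of all genes.

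**Figure D4:**
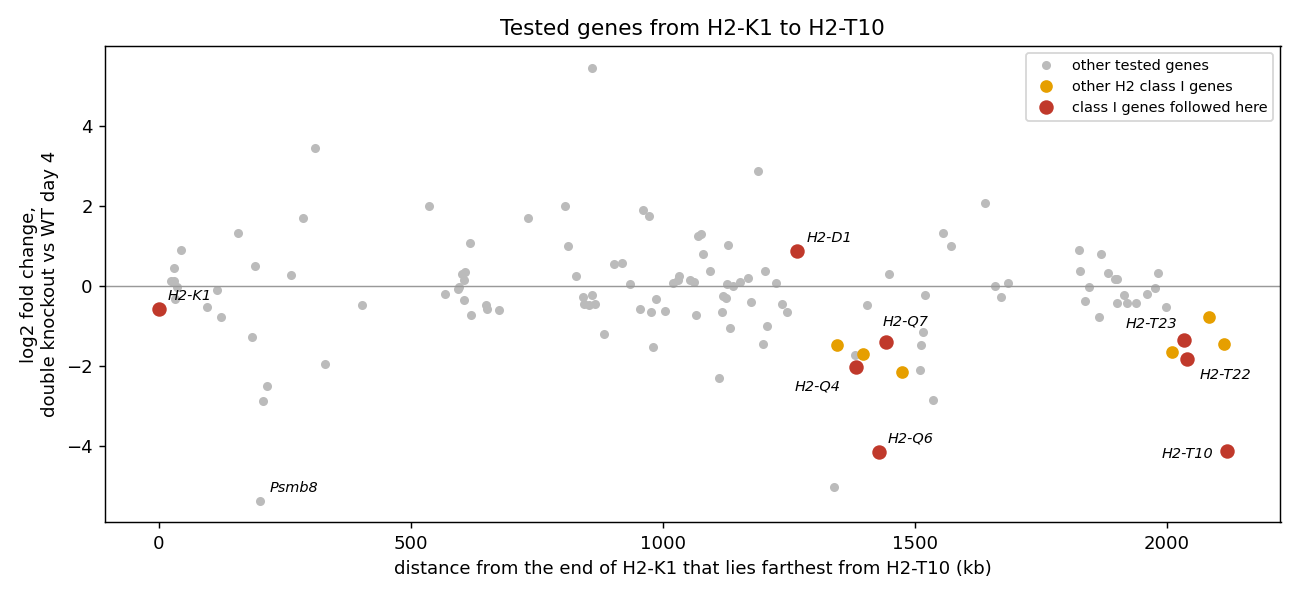
Log2 fold change of the double knockout against WT at day 4 for every tested gene from H2-K1 to H2-T10, by distance in kb. Class I genes of the list are red, other H2 class I genes orange and the rest grey. H2-Q6 and H2-T10 lay at -4.13 and -4.11, and H2-K1 and H2-D1 at -0.56 and 0.88.

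Markers of other cell types moved with the groups, and their part in the results was not tested. In bulk libraries fewer cells of a type and less RNA per cell cannot be told apart. Over all tested genes 10.8% were called higher and 12.3% lower in the double knockout, and 15.4% and 20.1% in the Smad2 knockout. The summed level of 14 trophoblast markers was 904 to 1040 CPM in the double knockout, 407 to 627 in the Smad2 knockout and 254 to 264 in WT, with 12 of 14 called higher and 1 lower in the double knockout. The 10 surface ectoderm markers summed to 2040 to 2500 CPM there, 2060 to 2840 in the Smad2 knockout and 383 to 596 in WT. Visceral endoderm markers summed to 8.1 to 9.95 CPM at day 0, 114 to 178 in the double knockout, 44.7 to 45.4 in the Smad2 knockout and 770 to 901 in WT, with 8 of 10 lower in the double knockout and 10 of 10 lower in the Smad2 knockout. The 10 pluripotent cell markers summed to 4270 to 4380 CPM at day 0 and 1410 to 1790 in WT at day 4. The Smad2 knockout had 1440 to 1860, the Smad3 knockout 931 to 1030 and the double knockout 676 to 855. Gene by gene these markers went both ways in the double knockout: 4 of the 10 were lower than in WT, 2 were higher, and their median was 0.08. For immune cells, the classical high expressers of class I, the 14 markers summed to 74.6 to 89.4 CPM in the double knockout and 22.3 to 38.5 in WT, and 128 to 128 at day 0. Of them 3 were called higher and 1 lower in the double knockout; Klrb1c and Ncr1 were at 0 in all 5 groups, and Ptprc in WT at day 4. The 8 endothelial markers summed to 71.1 to 97.6 CPM in the double knockout and 29.7 to 31.9 in WT, and the 11 fibroblast and feeder cell markers to 563 to 659 and 501 to 641. Of 6 tested endothelial markers 1 was called higher and 0 lower in the double knockout. Of the 11 fibroblast and feeder cell markers 4 were called higher and 3 lower in the double knockout, with a median of 1.1. In the Smad2 knockout 6 of those 11 were higher and 2 lower, with a median of 2.27.

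Across the 10 libraries the heavy chain genes of the Q and T regions ran close together except H2-T23. Pearson's r of log2 CPM was 0.97 for H2-T10 and H2-T22, 0.98 for H2-Q7 and H2-T22 and 0.95 for H2-Q4 and H2-Q6. H2-T23 ranged from 0.61 with H2-Q6 to 0.85 with H2-Q7. H2-K1 had 0.83 with H2-Q4, 0.82 with H2-T22 and 0.67 with H2-Q6, whereas H2-D1 had -0.30 with H2-Q6 and 0.47 with H2-K1. These are descriptions over n = 10 libraries that share 5 groups and their depth, and near copies share reads. Among 11210 other genes of at least 5 CPM, those most like the mean profile of the 9 were Fndc4 (0.977), Relt (0.964), Dbndd2 (0.964), Ndn (0.962), Parp10 (0.957), Tapbp (0.939), Tap2 (0.936) and Rab3b (0.936). The least alike were Arid5b (-0.98), Zwilch (-0.977), Poli (-0.964), Gm13110 (-0.962), Smc1b (-0.962), Dnah8 (-0.957), Rnf17 (-0.957) and Zfp229 (-0.951). Tapbp and Tap2 are the tapasin and transporter genes described above.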

How the data were processed

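RNA-seq tables of 10 libraries were used; 14 further samples, from chromatin immunoprecipitation, were left out and are not analysed here. Expected counts were estimated by RSEM per the file headers, and the deposited TPM values came from the same tables. STAR, Bowtie2, HOMER, FastQC 0.11.5 and build mm10 are listed, with no roles, per the submitters' processing notes. Whether counting used strand is not stated. Gene IDs were matched to GENCODE M21 (53274 of 53379, ignoring versions).

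Expected counts were rounded and tested in edgeR 4.0.16 (R 4.3.3; TMM, filterByExpr, 1 quasi-likelihood fit over 5 groups with 5 residual degrees of freedom), with Benjamini-Hochberg adjustment over 19470 genes. The fit was tested on simulated data. Depth was 35733249 to 53672980 counts. H2-T23 rests on few counts in every library, and H2-T10 at day 0 and in the double knockout. H2-Q6 had 38.3 and 18.2 expected counts in the double knockout. Pearson's r between replicates was 0.969 to 0.993 (log2 TPM), and a chi-square test of their counts gave 23.8 to 204 per degree of freedom, above sampling noise in every group.

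The members and lists were chosen with earlier results of these data known. Named list genes were up to 2 per direction with the smallest adjusted p and at least 2 CPM in the higher group, plus Nlrc5, Tap1, Psmb8 and Psmb9; the 8 most and least alike genes were ranked by Pearson's r. Alternatives were RLE factors, library totals, a length and GC offset, 2 filters, replicate and file-series blocks, the compared groups alone, DESeq2 1.42.0, limma 3.58.1 on log2(TPM + 1) and log2(TPM + 0.1), leaving out each library, and summed near copies. Promoters came from RefSeq (GRCm38.p6) and were read with Biopython 1.88.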

Additional observations from a re-analysis of the deposited data

How the results depend on the processing

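The number of class I genes called in the Smad2 knockout was 2, both higher, and 1 higher with library totals, 0 with the compared groups alone, and 0 to 3 when each library was left out. On log2(TPM + 1) it was 1 and on log2(TPM + 0.1) 1, in both cases H2-Q6, lower, with neither of the 2 called. In the Smad3 knockout it was 0, and 0 to 1 with a library left out. Between the Smad2 and Smad3 knockouts it was 0, and 2 with no filter (H2-K1 and H2-D1, higher), 1 with the compared groups alone (H2-D1, higher), 2 on log2(TPM + 1) and 2 on log2(TPM + 0.1) (H2-T10 and H2-T22, lower), and 0 to 2 with a library left out. The cause was not tested. With a replicate block the counts were 7 at day 4 against day 0, 2 in the Smad2 knockout, 0 in the Smad3 knockout and 5 in the double knockout, so the block changed no count past 1.5 times; same-numbered libraries had r of deviations of 0.08 to 0.78 among the 4 groups whose replicate 2 is in the second file series, and -0.27 to -0.06 with the double knockout, whose libraries are both in the first, so the numbers were not taken to pair the libraries. With the file series as a block the count in the double knockout was 6, and 5 against the Smad3 knockout. Among named genes Psme1 in the Smad2 knockout was -0.11 on log2(TPM + 1) and -0.11 on log2(TPM + 0.1), and with the length and GC offset Parp14 was -0.24 at day 4 against day 0 and 0.07 in the Smad2 knockout. Few counts limit H2-T10 in the double knockout (9.5 and 8.5 expected counts). H2-T23 was not in the TPM tests. Over all genes, library totals moved the median log2 difference to 0.38 at day 4 against day 0 (6887 higher, 3306 lower, against 5622 and 4517) and to -0.20 in the Smad2 knockout (2126 and 4808, against 2993 and 3911); log2(TPM + 1) gave 7109 higher and 1461 lower, and 792 and 6157. In the double knockout log2(TPM + 1) gave 2061 higher and 1021 lower, against 2105 and 2401, and the length and GC offset 3315 and 3558. The Smad3 knockout had 84 genes higher and 24 lower, but 590 and 557 with that offset, 497 and 278 in DESeq2, and 1595 and 1114 without WT day 4 replicate 2.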
